A study of Homo sapiens with 6 samples.

Results

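COPG2, RALGAPA2 and THSD4 are 3 human genes in which thymidine glycol (Tg) sites were listed mainly in cells without the DNA glycosylases NTHL1 and NEIL1. They were picked from the site lists themselves, by 6 or more sites in the double knockout and at most 1 in wild type, so these counts describe the choice and are no finding. Of 20037 protein-coding genes, 13 met those counts inside the gene body (0.0649%), and 147 met them within 100 kb of the gene (0.734%). The genes and their 100 kb flanks held 26 of the 13061 listed sites, of which 25 were among the 9373 of the double knockout and 1 was among the 3688 of wild type. A site was assigned by its midpoint.

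Tg is an oxidised thymidine that blocks DNA synthesis. NTHL1 and NEIL1 are glycosylases that cut oxidised pyrimidines out of DNA and so start base excision repair. COPG2 encodes a gamma subunit of the COPI coat, which forms vesicles that carry proteins back from the Golgi to the endoplasmic reticulum. RALGAPA2 encodes a catalytic subunit of a complex that switches off the small GTPases RALA and RALB. THSD4, also called ADAMTSL6, encodes a secreted protein of the ADAMTS-like family that binds fibrillin microfibrils of the extracellular matrix. The 3 genes are on different chromosomes and are not known to act in 1 pathway.

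DPC-Seq was used to map the sites. In this assay NTHL1 is tied to the DNA where it removes Tg and the bound fragments are pulled down and sequenced. The double-knockout cells were HEK293T with the genotype NTHL1-/-,NEIL1-/-, the wild-type cells were HEK293T, and neither was treated before the DNA was taken. HEK293T, derived from human embryonic kidney, expresses SV40 large T antigen. Its copy number is uneven and was not corrected for here. There were 2 labelled libraries of each genotype and 1 input library of each. How many knockout clones were used is not given in the sources used here. The files hold 1 list of sites for each genotype and no values per library, so no difference below has a spread between replicates or a test. The intervals are exact Poisson or Clopper-Pearson intervals at the 95% level and cover counting error only. Amplified reads are not independent molecules, so the intervals on reads may be too narrow. Reads at the summit of a site were recovered from the deposited fold enrichment and −log10 p and had a median of 17 over all double-knockout sites (6 to 452) and of 13 over all wild-type sites (6 to 405). The double-knockout data were taken to be deeper. The lowest background in their list, used as the genome-wide level, was 1.69 times that of wild type (1.61 times per base pair of fragment length). The median backgrounds were 2.65 reads in the double-knockout list and 1.74 in the wild-type list.

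Within the gene bodies, COPG2 held 6 double-knockout sites (counting interval 2.20 to 13.1) and 0 wild-type sites (0 to 3.69). RALGAPA2 also held 6 and 0. THSD4 held 8 double-knockout sites (3.45 to 15.8) and 1 wild-type site (0.0253 to 5.57). COPG2 and RALGAPA2 are therefore at the edge of the rule, and THSD4 at its limit for wild type. Just outside the rule were 18 protein-coding genes with 5 double-knockout sites, of which 9 had 0 and 9 had 1 wild-type site, and 1 gene with 6 and 2. With the flanks, the double-knockout counts were 6, 10 (4.80 to 18.4) and 9 (4.12 to 17.1) for COPG2, RALGAPA2 and THSD4, and no wild-type site was added. Scaled from their whole chromosomes by length, the bodies of COPG2, RALGAPA2 and THSD4 would hold 0.485, 1.70 and 1.80 double-knockout sites and 0.229, 0.643 and 0.606 wild-type sites. The choice of genes set both the double-knockout and the wild-type counts, so nothing is read from their distance to these values.

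**Figure D1:**
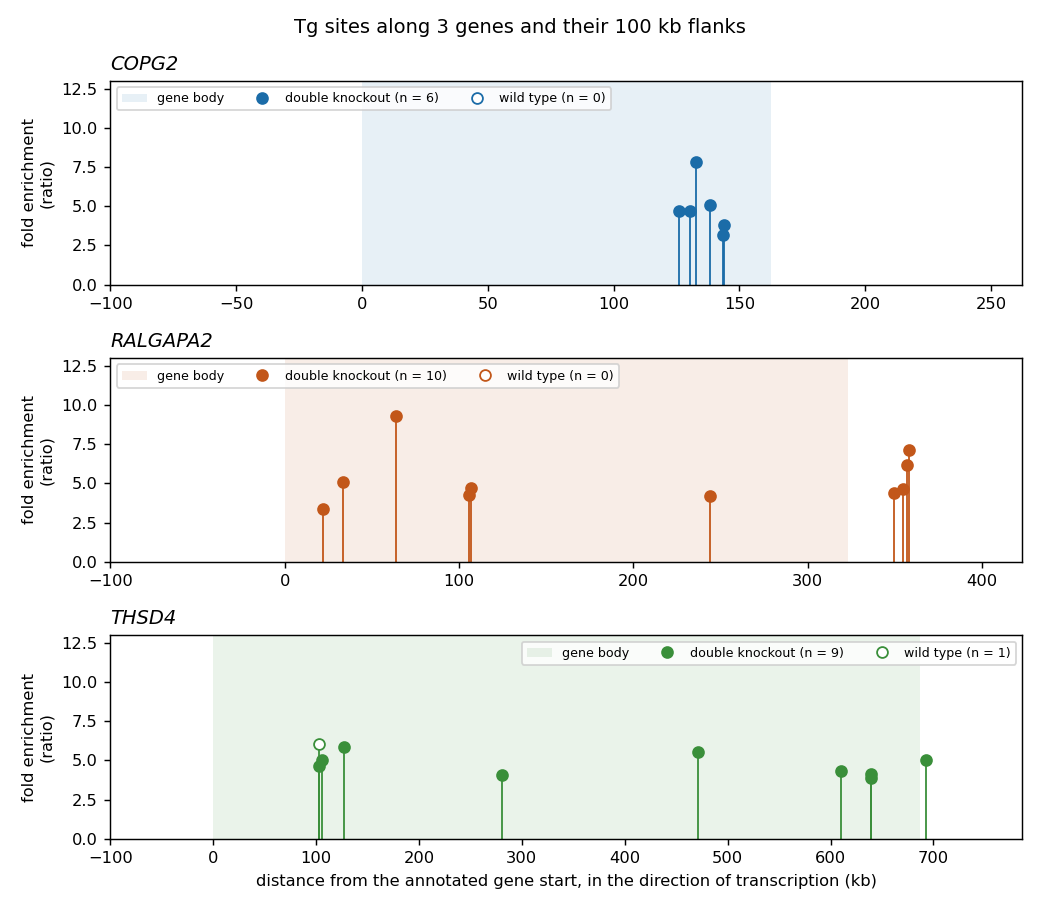
Position of each Tg site (x axis, kb from the annotated gene start in the direction of transcription) and its fold enrichment over background as deposited (y axis, a ratio), for the double knockout (filled) and wild type (open); shading marks the gene body. The 6 COPG2 sites stand in 1 run of 17.7 kb, the 10 RALGAPA2 sites include 4 beyond the end of the gene, the 9 THSD4 sites are spread over 590 kb, and the only wild-type site overlaps the first THSD4 site.

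The COPG2 sites formed 1 compact run. COPG2 lies on the minus strand of chromosome 7 (130506238 to 130668748, GRCh38, 163 kb), and its 6 sites lay between 126 and 144 kb from the gene start, towards the end of the transcribed stretch. In the order of their position they ran from 130524748 to 130525103, from 130525238 to 130525493, from 130530007 to 130530528, from 130535791 to 130536244, from 130538040 to 130538604 and from 130542439 to 130542748. Their midpoints spanned 17.7 kb, 10.9% of the gene, and the spacings between neighbours were 0.44, 4.90, 5.75, 2.30 and 4.27 kb (median 4.27 kb). Both 100 kb flanks and the rest of the gene held no site of either list. The nearest wild-type site was 373 kb away. The last site ended 705 bp before COPG2IT1 (130543453 to 130546900), a long non-coding RNA gene that lies inside COPG2 and held no site. MEST, an imprinted gene that overlaps the far end of COPG2, and CEP41, TSGA13 and KLF14 in the flanks also held none in either list.

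The COPG2 sites were near or under the list median in strength except for 1. In the order of their position they had 12, 11, 15, 22, 15 and 13 reads at the summit, on local backgrounds of 2.39, 2.79, 2.14, 1.93, 2.39 and 1.99 reads. The caller's fold enrichments were 3.83, 3.17, 5.09, 7.86, 4.72 and 4.68, against a median of 4.93 over the double-knockout list. The fourth site was the strongest, with a −log10 q of 12.4 (22 reads, counting interval 13.8 to 33.3), and ranked 993 of 9373. The second was near the bottom of the list, with a −log10 q of 2.06 and rank 9102. Widths were 356, 256, 522, 454, 565 and 310 bp, and the 256 bp site is as narrow as any in the list.

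RALGAPA2 showed a looser arrangement, with 6 sites inside the gene and a separate run past its end. RALGAPA2 lies on the minus strand of chromosome 20 (20389530 to 20712644, 323 kb). Counted from the gene start, its body sites lay at 21.9, 33.4, 63.8, 106, 107 and 244 kb, so 5 of the 6 were in the first 33.0% of the gene. The body sites spanned 222 kb, 68.7% of the gene, with a median spacing of 30.4 kb. From the gene start onwards their reads were 13, 13, 20, 10, 13 and 15. Their fold enrichments in the same order were 3.34, 5.12, 9.33, 4.24, 4.68 and 4.22. The third, at 20648573 to 20649028, was the strongest of all 25 sites by −log10 q (13.8, rank 713). It stood on a background of 1.25 reads, which equals the lowest of the list to 3 digits, and had 20 reads (12.2 to 30.9). The site nearest the gene start, at 20690291 to 20691177, was the widest of the 25 at 887 bp and among the weakest, with a −log10 q of 2.59.

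The other 4 sites of the RALGAPA2 window lay 349 to 358 kb from its start, downstream of the gene. Of these, 3 were inside CFAP61 (20052532 to 20360698), a gene of cilia and flagella, which held 3 double-knockout sites and 0 wild-type sites in its 308 kb, and the fourth was in no annotated gene. They had 20, 20, 22 and 19 reads in the order of their position, and folds of 7.15, 6.19, 4.61 and 4.36. The run spanned 8.55 kb with spacings of 0.838, 2.31 and 5.41 kb. INSM1, a transcription factor gene of neuroendocrine cells in the same flank (20368104 to 20370949), held no site. With gene bodies alone, or with flanks of 10 kb, the RALGAPA2 count was 6 and the CFAP61 run dropped out. Within 500 kb of RALGAPA2 lay 12 double-knockout and 0 wild-type sites, and within 1000 kb 15 and 1. The same distances held 7 and 1, then 12 and 4, around COPG2, and 12 and 2, then 25 and 6, around THSD4. For the sites of the RALGAPA2 window, the distances to the nearest wild-type site ran from 522 to 858 kb.

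The THSD4 sites were spread over the longest stretch, 590 kb, although inside the gene body their median spacing was close to that of RALGAPA2. THSD4 lies on the plus strand of chromosome 15 (71096894 to 71783383, 686 kb). Its 8 body sites lay at 103, 106, 127, 280, 471, 610, 639 and 639 kb from the gene start, and the ninth lay past the end of the gene, at 71789577 to 71789996 in no annotated gene. Spacings ran from 496 bp to 190 kb, with a median of 41.2 kb over the 9 sites and 28.8 kb inside the body. The sites fell into a group at 103 to 127 kb from the gene start and another near the end, with single sites in the stretch between them. No other protein-coding gene of the window (LRRC49, NR2E3 and MYO9A) held a site in either list.

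The THSD4 sites had more reads than those of the other genes, and a higher background. In the order of their position their reads were 24, 26, 18, 13, 20, 17, 26, 28 and 24, with a median of 24, against 14 in COPG2 and 17 in the RALGAPA2 window. The RALGAPA2 median includes the 4 sites outside the gene, which had 19 to 22 reads. The backgrounds of the THSD4 sites were 4.38, 4.38, 2.24, 2.45, 2.79, 3.19, 5.98, 5.98 and 3.98 reads. The background was above the list median of 2.65 at 7 of the 9 THSD4 sites, at 1 of 6 COPG2 sites and at 4 of 10 RALGAPA2 sites. Fold enrichments, which divide by the background, were close to each other, from 3.87 to 5.86 in THSD4. The median was 4.64 in the THSD4 window, 4.70 in the COPG2 window and 4.65 in the RALGAPA2 window. In the gene bodies it was 4.47, 4.70 and 4.46 in the same order. No THSD4 site reached the strength of the best COPG2 or RALGAPA2 site, the highest −log10 q being 8.75 at 71202905 to 71203441. The part of the higher background in these read numbers was not tested.

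The only site found in both lists was the first THSD4 site. It ran from 71199371 to 71200020 in the double knockout (650 bp, 24 reads, counting interval 15.4 to 35.7) and from 71199387 to 71199800 in wild type (414 bp, 19 reads, 11.4 to 29.7). The wild-type site lay wholly inside the double-knockout site, and the summits were 61 bp apart. Divided by the depth ratio, the double-knockout reads were 14.2, which is 0.746 times the wild-type reads (0.786 times with the ratio of depth alone), a difference within the counting error of either number. The next double-knockout site, 3.48 kb further, had 26 reads and no wild-type partner. Sharing was thus found for 1 of 25 sites, or 4% (0.101% to 20.4%), against 28.3% of the whole double-knockout list, as the choice of genes with at most 1 wild-type site demands. By distance, 22 of the 25 sites had no wild-type midpoint within 100 kb (88%, 68.8% to 97.5%), against 43.1% of the list, a share that the choice of genes also largely sets.

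**Figure D2:**
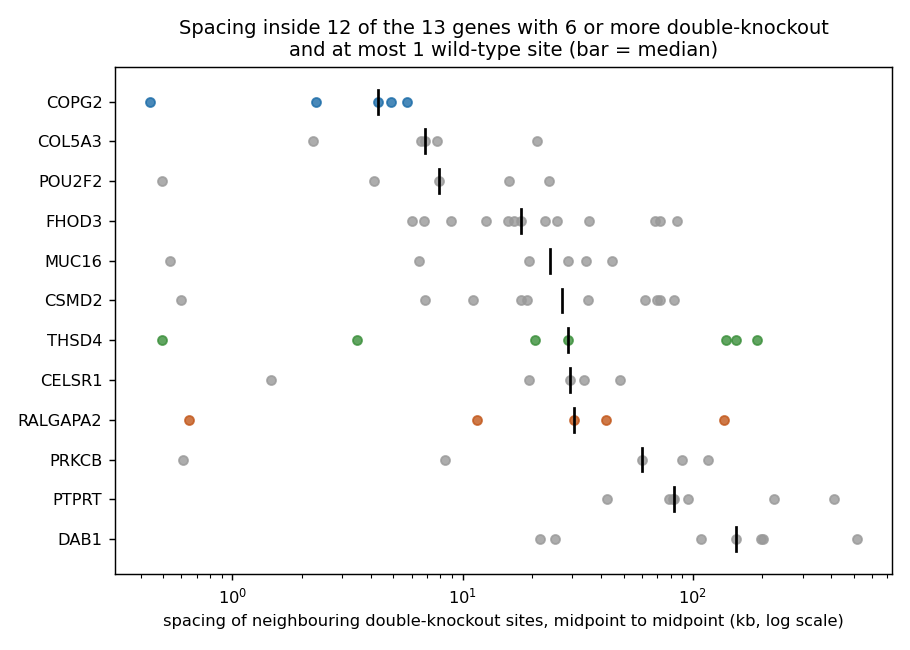
Spacing of neighbouring double-knockout sites (x axis, kb, log scale; points are single spacings, bars are medians) inside the bodies of 12 of the 13 protein-coding genes with 6 or more double-knockout and at most 1 wild-type site. COPG2, in blue, has the shortest median at 4.27 kb, and THSD4, in green, and RALGAPA2, in orange, lie mid-way at 28.8 and 30.4 kb.

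Set against the 10 other genes that met the same counts, COPG2 stood at the compact end. Its median spacing was the shortest of the 13, followed by COL5A3, a fibrillar collagen chain, at 6.87 kb and POU2F2, a lymphoid transcription factor, at 7.91 kb. Its sites covered the smallest part of the gene, 10.9%, against 46.7% for POU2F2 and 58.0% for CSMD2 as the next. All 6 of its sites fitted in 20 kb, where no other gene of the 13 had more than 4. By density COPG2, with 3.69 double-knockout sites per 100 kb, came after COL5A3 (11.8) and POU2F2 (5.37).

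RALGAPA2 and THSD4 were near the middle of the 13 genes by median spacing, and THSD4 was lower by density. Their 1.86 and 1.17 sites per 100 kb ranked 7 and 10, and their median spacings ranked 9 and 7. The formin gene FHOD3, with 14 sites, had a median spacing of 18.0 kb, and DAB1, a reelin signalling adaptor, had the longest at 155 kb. Genes between these were CSMD2, the receptor phosphatase gene PTPRT, the mucin gene MUC16, the adhesion receptor gene CELSR1 and the protein kinase C gene PRKCB, with medians from 24.1 to 82.9 kb. No test was made of these differences, as each gene has 1 set of sites.

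Long runs of double-knockout sites were few, with or without a wild-type site near them. COPG2 was picked for many double-knockout and few wild-type sites, which favours a place among such runs. These counts do not set how close the sites lie. As the gene was chosen with earlier results of these data known, its place is a description only. Of all 954 runs of 2 or more sites, 220 had no wild-type site within 100 kb. With neighbours joined up to 10 kb, the double-knockout list had 15 runs of 6 or more sites, and 3 of them, including COPG2, had no wild-type site within 100 kb. Of these 3, COPG2 and 1 other are on the main chromosomes. The list had 63 runs of 4 or more sites, and 10 of them, among which are the COPG2 and CFAP61 runs, had no wild-type site within 100 kb. Counted as runs, the COPG2 window has 1 locus, the RALGAPA2 window has 6 and the THSD4 window has 7. These include the CFAP61 run outside RALGAPA2 and the site past the end of THSD4.

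Each of the 3 windows contained sites lying next to each other with under 1 kb between midpoints. In COPG2 the sites at 130524748 and 130525238 were separated by 134 bp and had 12 and 11 reads. In THSD4 the sites at 71735630 and 71736080 were separated by 148 bp, had 26 and 28 reads and the same background of 5.98. RALGAPA2 contained such sites at 20605703 and 20606550, 195 bp apart with 13 and 10 reads, and CFAP61 at 20354650 and 20355486, 415 bp apart with 20 reads each. Their summits were 408, 518, 539 and 799 bp apart in that order. Per the labels' protocols the DNA was cut to 100 to 300 bp, and no double-knockout site is narrower than 256 bp, so whether such neighbours are separate places of damage or 1 broad site that was split cannot be told apart here.

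In all, 8 of the 25 sites (32%, 14.9% to 53.5%) had another double-knockout site within 1 kb, against 5.22% of the whole list. Within 10 kb it was 16 of 25 (64%, 42.5% to 82.0%), against 23.9%. Having a neighbour is mutual, so sites are counted in pairs or runs and are not independent. These intervals treat them as independent and are too narrow. The choice of genes with many sites shortens these distances, so the list is no neutral background for them. In the bodies of the 10 other genes that met the counts, 8 of 78 sites (10.3%) had a neighbour within 1 kb and 30 (38.5%) within 10 kb. The same shares in the bodies of COPG2, RALGAPA2 and THSD4 were 6 of 20 (30%) and 12 of 20 (60%). The 6 sites within 1 kb were 1 pair in each gene. The 12 within 10 kb include all 6 sites of the COPG2 run, so that share does not describe each gene alike. A spacing under 1 kb occurred in 3 of these 3 genes and in 4 of the 10 others. The 3 genes were chosen with earlier results of these data known, so nothing is read from their difference to the others.

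**Figure D3:**
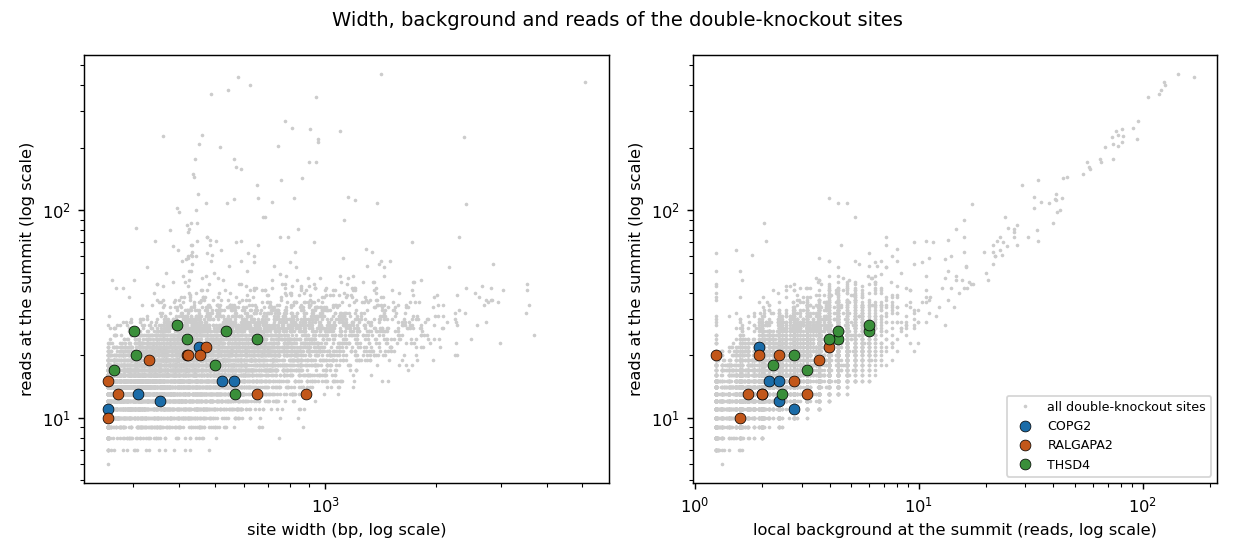
Reads at the summit (y axes, log scale) against site width (left, bp, log scale) and against the local background in reads (right, log scale) for all 9373 double-knockout sites (grey) and the 25 sites of the 3 windows (colours). The coloured points lie inside the grey cloud, from 256 to 887 bp and from 10 to 28 reads, and the THSD4 points sit towards higher background.

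Site widths were close to those of the list. The 25 sites had a median width of 421 bp and a range of 256 to 887 bp, against a list median of 409 bp (quartiles 314 and 569 bp). The medians were 405 bp in the COPG2 window, 423 bp in the RALGAPA2 window and 420 bp in the THSD4 window. In the gene bodies they were 405, 364.5 and 447 bp in the same order. There were 14 sites wider than the list median. Of the 25, 3 had the narrowest width that occurs, 256 bp, as did 6.45% of the list, and 8 were under its lower quartile, and 3 were above its upper quartile. Sites covered 2463 bp in the COPG2 window, 4431 bp in the RALGAPA2 window and 3944 bp in the THSD4 window. The RALGAPA2 and THSD4 totals include sites outside the gene, so they do not rank the gene bodies. In the 10 other genes the median width was 348 bp, and it was 424 bp in the bodies of COPG2, RALGAPA2 and THSD4.

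Strength was also close to that of the list. The median fold enrichment was 4.68, against 4.93 over the list, and 10 of the 25 sites were above the list median. The median −log10 q was 5.63, against 5.88. Reads ranged from 10 to 28, with a median of 18 against 17. The best rank by q among the 25 was 713 of 9373.

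Few sites of the whole list overlapped gene starts, and none of the 25 did. The share of the genome in such windows is not given here, so no lack of sites at gene starts is read from this. Of the 25 sites, 0 overlapped a RefSeq start window (250 bases before to 50 bases after a gene's start), against 0.757% of the double-knockout list, a share at which 25 sites would seldom include any. The nearest site was 126 kb from the start window of COPG2 and 21.4 kb from that of RALGAPA2. For THSD4, which has 3 such windows, the shortest distance was 20.2 kb. The gene table gives gene limits only, so sites were not placed in exons or introns.

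**Figure D4:**
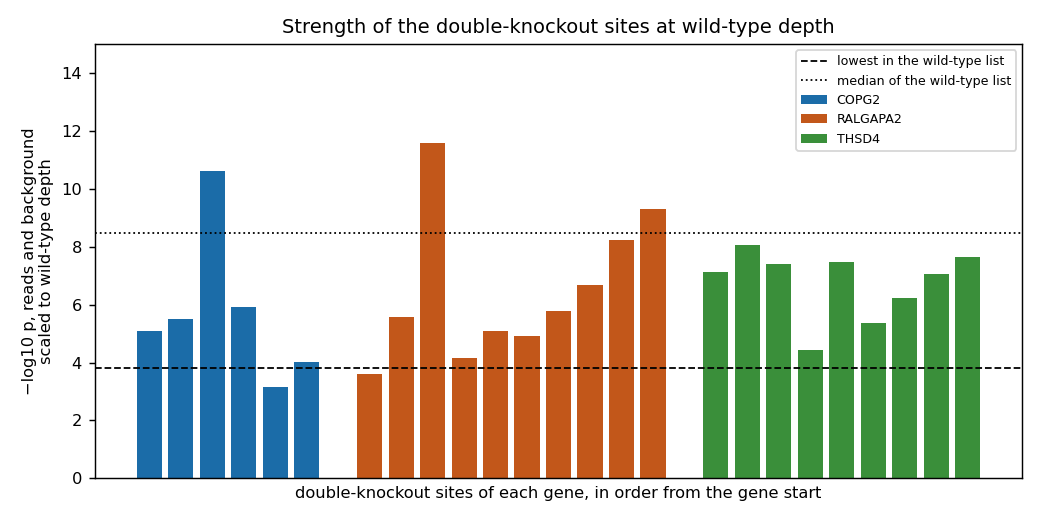
The −log10 p (y axis) that each of the 25 double-knockout sites would have with its reads and background divided by the depth ratio of 1.69, in order from the gene start (x axis), with the lowest (3.79, dashed) and median (8.46, dotted) −log10 p of the wild-type list. Most bars, 23 of 25, end above the dashed line and 3 end above the dotted line.

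The deeper double-knockout data could list weaker sites, so each site was scaled to the wild-type depth. With reads and background divided by 1.69, 23 of the 25 sites (92%, 74.0% to 99.0%) had a −log10 p of at least 3.79, the lowest in the wild-type list, as did 91.0% of all double-knockout sites. The 2 that did not were the second COPG2 site, at 3.14, and the RALGAPA2 site nearest the gene start, at 3.59. At the median of the wild-type list, 8.46, only 3 sites passed (12%, 2.55% to 31.2%), against 22.8% of all double-knockout sites. Of the 24 sites with no wild-type partner, 22 passed the lower bar and 3 the higher, against 88.6% and 12.0% of all such double-knockout sites. These 3 were the strongest sites of COPG2 (10.6), RALGAPA2 (11.6) and CFAP61 (9.29). No THSD4 site passed, the highest reaching 8.06. The wild-type list was cut by q and not by p, so 3.79 is the most lenient bar it allows. Only the −log10 p at the summit was scaled, and whether a site would keep enough width to be listed was not checked. The sites were listed for their double-knockout reads, so these reads may lean high. Scaled reads ran from 5.91 to 16.5. Reads at places with no listed site are not in the lists, so how many wild-type reads lay at these positions is not known here.

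Genes with related roles were set beside the whole list, where 14.0% of protein-coding genes held a double-knockout and 5.88% a wild-type site. Of 10 other genes of the COPI coat and its ARF1 switch, 1 held a double-knockout site (COPG1, the paralog of COPG2, with 1) and 0 held a wild-type site. Of 16 other genes of the Ral pathway and related GTPase-activating proteins, 6 (37.5%) held double-knockout sites and 4 (25%) held wild-type sites. This list includes RAP1GAP, SIPA1 and TSC2, which act on other small GTPases and held no site. RALGPS1, an exchange factor that switches Ral on, held 7 and 2. RALB and RALGDS held 1 and 1 each, EXOC2, an exocyst subunit bound by Ral, also 1 and 1, and RALGAPA1, the paralog of RALGAPA2, 1 and 0, as did RGL1. The paralogs of COPG2 and RALGAPA2 thus held 1 double-knockout site each.

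Of 18 other genes of microfibrils, ADAMTS-like and thrombospondin-domain proteins, 7 (38.9%) held double-knockout sites and 3 (16.7%) held wild-type sites. FBN3 held 3 and 2, and THSD7B held 3 and 0. FBN1, the main fibrillin, held 1 and 0, as did LTBP1, ADAMTSL1 and PAPLN, while LTBP2 held 1 and 1 and ADAMTSL3 held 0 and 1. The median was 0 sites per gene in each of these groups, as over all protein-coding genes. The groups differ in length, with 425 kb for the COPI group, 1804 kb for the Ral group and 4144 kb for the microfibril group, and a longer gene can hold more sites. The shares over all protein-coding genes were not matched for length, so no group is read as rich in sites. No test was made of these shares.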

How the data were processed

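The build was hg38 and the tools were bedtools, Bowtie2, deepTools and MACS2, per the submitters' processing notes. Not given in the sources used here were their settings and versions, and whether libraries were pooled before calling. The authors deposited 1 headerless list per genotype, matched to it by the genotype word shared with the sample titles. The deposited score of a site is 10 times its −log10 q, rounded down. The deposited fold enrichment, −log10 p and −log10 q are the authors' caller's own. They describe and rank sites within a list, except that the lowest and the median wild-type −log10 p also served as bars for double-knockout sites.

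Computed here (Python 3.11.15, numpy 2.4.6, pandas 2.3.3, scipy 1.17.1): whole reads and background were recovered as the pair whose fold, each raised by 1, and Poisson tail match the deposited values, within 0.001 of the deposited −log10 p at 100% of sites; the step was tested on simulated data. The depth ratio is that of the lowest backgrounds, 1.69, or 1.61 after division by the narrowest site (256 and 243 bp). Genes, starts and strands came from RefSeq tables (GRCh38.p14, the same primary coordinates as hg38). The members and gene lists were chosen with earlier results of these data known. Named genes are the members, genes holding a member site, genes meeting the same counts (1 of them is counted but not reported here) and list genes with a site; CEP41, MEST, TSGA13, KLF14, INSM1, LRRC49, NR2E3, MYO9A and COPG2IT1 were named after their values were seen. Sharing means at least 1 bp of overlap. The input libraries were not analysed here.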

Additional observations from a re-analysis of the deposited data

How the results depend on the processing

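No paired analysis was possible because each genotype has 1 list and no values per library; for the same reason no library could be left out. Of 35 values under 17 alternatives, 28 stayed within 1.5 times the main count or inside the interval of the main median. The 18 further values are wild-type counts of 0, 0 and 1, which most alternatives could not raise. The COPG2 count of 6 double-knockout sites was 2 with a −log10 p of at least the wild-type median and 1 with sites within 10 kb counted once. The RALGAPA2 count of 10 was 6 in the gene body alone, 6 with 10 kb flanks, 5 with a −log10 p of at least the wild-type median and 6 with sites within 10 kb counted once. The number of the 25 sites whose scaled −log10 p reached the lowest of the wild-type list was 23. It was 3 when the bar was that list's median −log10 p and 23 with the ratio of depth alone. Intervals of a median over 5 to 9 spacings are wide, and the RALGAPA2 median spacing of 11.5 kb was 30.4 kb in the gene body. Reads per site are few, so single sites near the threshold can enter or leave a list by counting error.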
